A study of Mus musculus with 4 samples.

Results

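A set of 9 genes that act upstream of, or against, the muscle-determination factors was followed through all 4 libraries of C2C12 cells. They are the paired-homeobox factors Pax3 and Pax7, the sine oculis homeobox factors Six4 and Six5, the Eya coactivators Eya1 to Eya4, and the bHLH repressor Msc. They were taken by name, as the rows whose identifier equals the gene symbol, and 9 of 9 were listed once in each library, among 24850 entries with a gene symbol in the total RNA tables and 24992 in the polyA tables. C2C12 is an established mouse myoblast line that fuses into myotubes in differentiation medium (DM). Total RNA depleted of rRNA was sequenced from myoblasts (MB, DM -24 h) and from myotubes (MT, DM 72 h by the sample labels, while the study's text gives other hours for MT in places). PolyA RNA was sequenced from C2C12 cells kept for 48 h in DM after transfection with siRNA against hnRNPL (si-hnRNPL) or with scrambled control oligos (si-NC). All 4 cultures carry the same unmodified line. Each condition was sequenced once, so the differences below could not be set against a spread between replicates and carry no p-values.

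In vertebrate muscle development, Pax3 and Pax7 mark progenitors that are not yet committed, and Pax7 marks the satellite cells of adult muscle. Sine oculis factors bind DNA directly, while Eya proteins have no DNA-binding domain of their own and are recruited by them as coactivators that also carry phosphatase activity. The pathway is known for acting on the genes of the muscle-determination factors, Myf5, Myod1 and Myog. Msc, also called MyoR, is a bHLH factor known to repress targets of MyoD.

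Levels are given as FPKM, a number of fragments scaled by transcript length and library size, with the 95% interval that Cufflinks wrote beside it. This interval reflects the error of counting and assigning fragments inside 1 library, not the spread between cultures. Its width implies a number of fragments behind each value, totalling 59957460 for the MB library, 54440533 for that of MT, and 21341051 and 14592480 for the polyA libraries of si-NC and si-hnRNPL. The labelled state of the cultures was read from marker genes. All 5 myotube markers listed in the total RNA tables (Myog, Myh3, Ckm, Acta1 and Tnnt3) were higher in MT, with a summed FPKM of 13.6 in MB and 1212 in MT, and all 5 cycling-cell markers were lower, with sums of 445 and 76.9. The 5 myoblast markers (Myod1, Myf5, Des, Cdh15 and Ncam1) summed to 222 FPKM in MB and 443 in MT. By the call described below, 4 of them were higher in MT and 0 lower, and Myf5 was nearly level. The myoblast list was therefore not higher in the library labelled MB, and the labels rest on the myotube and cycling-cell lists. Both polyA libraries held myotube transcripts, at 1988 FPKM for si-NC and 2874 for si-hnRNPL summed over 6 markers. The 4 endothelial markers summed to at most 0.368 FPKM in any library, the listed macrophage and blood markers to at most 1.21, and Adipoq, Plin1 and Lep to at most 0.0446. Among the Schwann cell and neuron markers Sox10 and Snap25 stayed under 1 FPKM, while Tubb3 stood at 56.4 in MB and 11.4 in MT.

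Promoter sequences show where the 2 Eya genes that moved in opposite directions, and Six4, start. The RefSeq promoter table (GRCm38.p6) held windows of 250 bases before to 50 bases after the annotated start for 5 of the 9 genes (Pax7, Six4, Six5, Eya3 and Eya4). Each of its windows for them had exactly 1 match in the mm9 genome, the build of the deposited tables. Letters searched on both strands were CANNTG, the E-box bound by bHLH factors such as MyoD and Msc, and TCAGGTT, the core of the MEF3 element bound by sine oculis factors. CANNTG reads the same on both strands, and the searched motifs do not overlap in the windows shown. The windows below are printed 5′ to 3′ on the strand of the gene, with each match in capitals. The Eya3 window lies on the plus strand at chr4:132638796-132639095 (GRCm38.p6), which is chr4:132194711-132195010 in mm9. The Eya4 window lies on the minus strand at chr10:23349841-23350140, which is chr10:23069647-23069946 in mm9. The Six4 window lies on the minus strand at chr12:73113196-73113495, which is chr12:74214183-74214482 in mm9.
Eya3: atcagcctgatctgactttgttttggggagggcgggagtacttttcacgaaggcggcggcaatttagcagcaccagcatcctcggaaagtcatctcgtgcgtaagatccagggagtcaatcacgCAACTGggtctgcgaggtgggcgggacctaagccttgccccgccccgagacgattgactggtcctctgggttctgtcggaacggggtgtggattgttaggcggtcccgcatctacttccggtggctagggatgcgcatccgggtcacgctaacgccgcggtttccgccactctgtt
Eya4: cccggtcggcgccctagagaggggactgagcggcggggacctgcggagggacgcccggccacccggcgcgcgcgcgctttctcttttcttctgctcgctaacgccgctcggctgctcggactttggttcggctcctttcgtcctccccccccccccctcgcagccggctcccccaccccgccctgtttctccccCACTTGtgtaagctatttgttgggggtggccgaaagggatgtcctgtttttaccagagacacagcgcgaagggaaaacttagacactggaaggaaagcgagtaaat
Six4: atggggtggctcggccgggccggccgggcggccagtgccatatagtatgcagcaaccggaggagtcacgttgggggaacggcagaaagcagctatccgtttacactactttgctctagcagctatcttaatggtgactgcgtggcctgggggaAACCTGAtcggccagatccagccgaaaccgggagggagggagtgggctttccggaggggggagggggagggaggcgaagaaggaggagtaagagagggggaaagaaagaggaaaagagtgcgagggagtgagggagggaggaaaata

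The Eya3 window held a single CANNTG, at position -126 from the start, and the Eya4 window shown a single one, at position -56. Eya4 has a second annotated start in the table, and in its overlapping window the single match lies at position -3. Some 72.3% of all 32851 promoter windows in the table held at least 1 match to CANNTG. The 2 windows listed for Six4, the window for Six5 and the window for Pax7 held none. TCAGGTT was found once among the windows of these genes, as its reverse complement in the Six4 window shown, while 4.07% of all windows held it. These are matches of letters and not measured sites.

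In MB the 9 genes fell into an abundant, a low and a nearly silent set. Eya3 was the most abundant at 16.9 FPKM (95% interval 16.5 to 17.3), followed by Six4 at 14.8 (14.4 to 15.1) and Eya4 at 13.98 (13.6 to 14.4). The intervals of these neighbours in the order did not overlap. Eya1 stood at 7.86 (7.48 to 8.23) and Pax7 at 4.85 (4.61 to 5.09). Msc at 1.61 (1.39 to 1.84) and Six5 at 1.45 (1.29 to 1.61) had overlapping intervals, so their order is not resolved. Eya2 at 0.0455 and Pax3 at 0.0163 FPKM had overlapping intervals as well, and correspond to 6.60 and 3.43 fragments.

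In MT the order at the top changed. Eya4 at 22.5 FPKM (21.9 to 23.0) and Six4 at 21.97 (21.5 to 22.4) led with overlapping intervals, and Eya3 followed at 10.7 (10.3 to 10.98). Eya1 stood at 8.91 (8.54 to 9.29), Pax7 at 7.42 (7.13 to 7.71), Six5 at 2.00 (1.82 to 2.19) and Msc at 0.851 (0.692 to 1.01). Pax3 at 0.0271 and Eya2 at 0.00542 FPKM again closed the order. Placed among all named entries, Six4 and Eya4 moved from above 78.4% and 77.5% of entries in MB to above 87.2% and 87.4% in MT, while Eya3 moved from above 80.3% to above 75.8%.

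**Figure D1:**
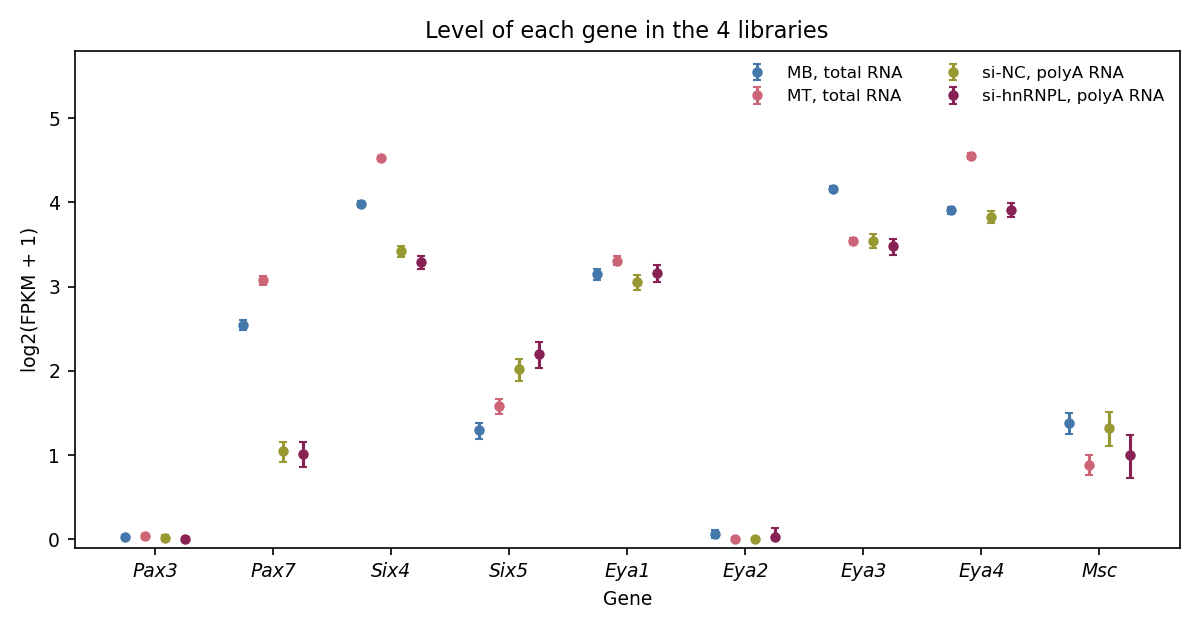
Level of each of the 9 genes as log2(FPKM + 1) in MB and MT (total RNA) and in si-NC and si-hnRNPL (polyA RNA), with 1 point per library and bars for the 95% interval that Cufflinks gave. Pax3 and Eya2 lie at the bottom in all 4 libraries, and the largest gap between kinds of library is that of Pax7, at 7.42 FPKM in MT and 1.07 in si-NC.

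The comparison of MT with MB addresses how these genes change as myoblasts differentiate. Changes are log2((FPKM + 1) ratio), and a gene was called at an absolute value of 0.58 or more, close to the 1.5-fold threshold that the study uses. By this rule Eya4 was higher in MT and Eya3 lower, which makes 1 of 9 genes higher and 1 of 9 lower. Of 18417 named entries with an FPKM above 0 in either library, 10.5% were higher and 18.4% lower, and of those that reached 1 FPKM in either library 15.4% were higher and 28.5% lower. These are small counts beside shares of that size. The median change over the 9 genes was 0.16, beside -0.006 over all the named entries and -0.23 over the 10739 named entries at 1 FPKM or more in both libraries. Most abundant genes were thus lower in MT on this scale. The log2 changes of the 9 genes for MT over MB given below shift upward by 0.23 when read relative to that median.

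Among the Pax genes, Pax7 went from 4.85 to 7.42 FPKM, a ratio of 1.53 (95% interval 1.44 to 1.63) and a log2 change of 0.53 (0.45 to 0.60), just under the call. Its intervals in MB and MT did not overlap. Pax3, which acts ahead of Pax7 in the embryo and is little expressed in most satellite cells of the limb, gave 0.0163 FPKM (0 to 0.0339) in MB and 0.0271 (0.00716 to 0.0471) in MT. These intervals overlapped, and the value in MT corresponds to 7.38 fragments.

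Among the sine oculis genes, Six4 went from 14.8 to 21.97 FPKM, a ratio of 1.49 (1.44 to 1.54) and a log2 change of 0.54 (0.50 to 0.59). Six5, which lies next to the gene mutated in myotonic dystrophy type 1, went from 1.45 to 2.00 FPKM, a ratio of 1.38 (1.20 to 1.60) and a log2 change of 0.29 (0.16 to 0.42). Both were above MB beyond the intervals of the libraries, and neither reached the call. Pax7 and Six4 are the closest of the 9 below the threshold, and Eya3 and Eya4 are the ones just past it.

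The Eya coactivators did not move as a family. Eya4 was higher in MT by a ratio of 1.61 (1.55 to 1.67), a log2 change of 0.65 (0.60 to 0.70). Eya3, which is widely expressed outside muscle, was lower by a ratio of 0.629 (0.605 to 0.654), a log2 change of -0.62 (-0.68 to -0.57). Eya1 was nearly level at a ratio of 1.14 (1.07 to 1.21), a log2 change of 0.16 (0.081 to 0.25). Eya2 was listed at 0.0455 FPKM (0.0101 to 0.0809) in MB and at 0.00542 (0 to 0.0233) in MT, with overlapping intervals, and the MT value corresponds to less than 1 fragment. The ranking of Eya3 above Eya4 in MB was therefore the opposite in MT, with intervals that did not overlap in either library.

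Msc went from 1.61 FPKM (1.39 to 1.84) to 0.851 (0.692 to 1.01), a ratio of 0.527 (0.413 to 0.662). On the log2((FPKM + 1) ratio) scale this is -0.50 (-0.67 to -0.32), which misses the call because a pseudocount of 1 weighs on a gene at this level. Msc had the lowest ratio among the 7 genes that reached an FPKM of 1 in either library.

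A second rule asked for intervals that do not overlap and a ratio of FPKM of at least 1.5 in either direction. By it Pax7 and Eya4 were higher and Eya3 and Msc lower, 2 of 9 in each direction. Among all named entries 18.1% were higher and 22.6% lower by the same rule, so the 9 genes were called about as often as genes at large. Relative to the median of genes at 1 FPKM or more in both libraries, the log2 changes of Eya4, Six4 and Pax7 were 0.87, 0.77 and 0.75, and that of Eya3 was -0.40.

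**Figure D2:**
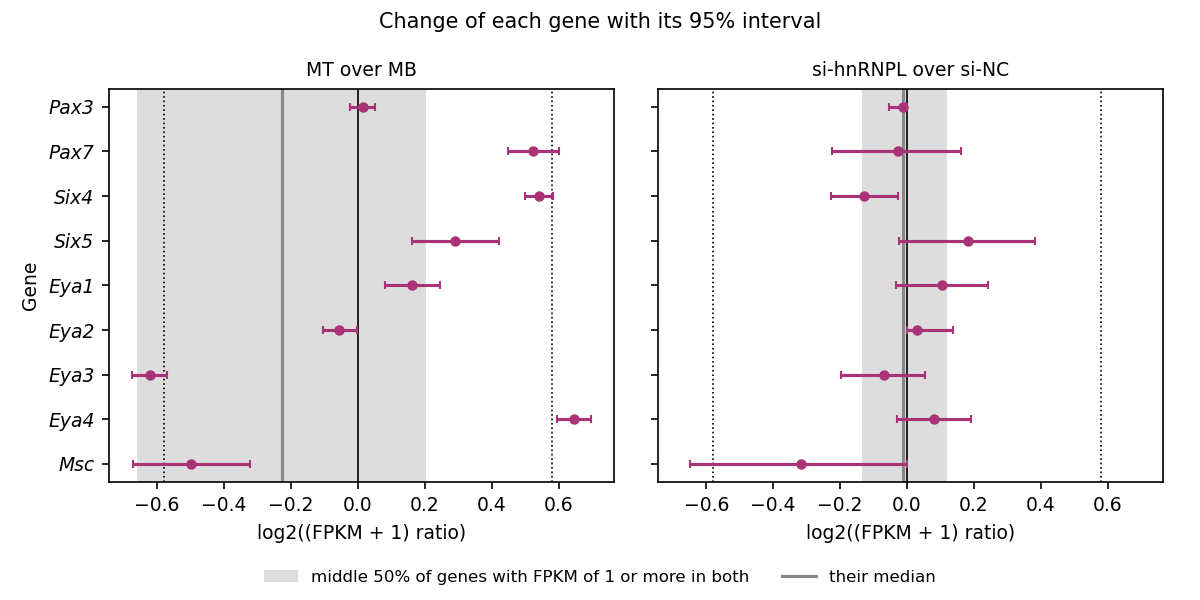
Log2((FPKM + 1) ratio) of each of the 9 genes for MT over MB (left) and si-hnRNPL over si-NC (right), with bars for the 95% interval from both libraries, dotted lines at -0.58 and 0.58, and a grey band and line for the middle 50% and the median of genes at 1 FPKM or more in both libraries. In the left panel Eya4 (0.65) and Eya3 (-0.62) lie past the dotted lines, and in the right panel every gene lies between them.

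The knockdown comparison addresses whether the same genes respond to loss of hnRNPL in differentiating cells. The targeted transcript, Hnrnpl, stood at 95.1 FPKM (92.7 to 97.5) in si-NC and at 85.9 (83.1 to 88.7) in the library labelled si-hnRNPL, a ratio of 0.904 (0.867 to 0.942). The RNA therefore gives only a small difference by which to check the label, and the siRNA effect below is that of a library with this level of the target. Of the 9 genes, 0 were called in either direction. Among 16766 named entries 1.03% were higher and 0.62% lower, among those that reached 1 FPKM in either library 1.44% and 0.888%, and by the rule of intervals and ratio 1.23% and 1.55%. With so few calls among all genes, a count of 0 among 9 is close to that background.

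Each gene is given here by its level in si-NC and then in si-hnRNPL. Pax7 stood at 1.07 FPKM (0.893 to 1.24) and 1.02 (0.816 to 1.23), a log2 change of -0.028 (-0.22 to 0.16). Six4 stood at 9.70 (9.25 to 10.1) and 8.80 (8.26 to 9.33), a log2 change of -0.13 (-0.23 to -0.028). Six5 stood at 3.05 (2.68 to 3.41) and 3.59 (3.10 to 4.09), a log2 change of 0.18 (-0.024 to 0.38). Six4 and Six5 thus differed in sign, and the interval of the change lay away from 0 for Six4 and held 0 for Pax7 and Six5. The intervals of the libraries overlapped for Pax7, Six4 and Six5 alike, so these differences are not resolved.

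Eya4 stood at 13.2 FPKM (12.5 to 13.9) with si-NC and 14.0 (13.2 to 14.9) with si-hnRNPL, a log2 change of 0.081 (-0.029 to 0.19). Eya3 stood at 10.7 (10.0 to 11.4) and 10.1 (9.41 to 10.9), a log2 change of -0.069 (-0.20 to 0.055). Eya1 stood at 7.29 (6.78 to 7.80) and 7.92 (7.28 to 8.56), a log2 change of 0.11 (-0.032 to 0.24). For all 3 of these coactivators the interval of the change held 0 and lay inside the threshold on both sides. The interval covers error within a library only, so a difference of that size between cultures is not excluded. Eya2 was listed at 0 in si-NC and at 0.0213 FPKM (0 to 0.0994) in si-hnRNPL, and Pax3 at 0.00892 (0 to 0.0378) with control oligos and at 0 after si-hnRNPL. Each of these low values corresponds to less than 1 fragment.

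Msc showed the largest difference of the 9, from 1.499 FPKM (1.16 to 1.84) with si-NC to 1.01 (0.659 to 1.36) with si-hnRNPL, a ratio of 0.672 (0.419 to 0.998) and a log2 change of -0.32 (-0.65 to -0.001). The intervals of the libraries overlapped, and the values correspond to 76.0 and 33.4 fragments. At this depth the difference is not resolved. Beside these values, 2 of 5 cycling-cell markers, Mki67 and Top2a, were lower in si-hnRNPL (log2 changes of -0.62 and -0.60) and 2 of 6 myotube markers, Ckm and Acta1, were higher (0.71 and 0.61). The uncalled cycling-cell markers also lay below their si-NC value, and the uncalled myotube markers above it. Whether a difference in the extent of differentiation moves with any of the 9 genes was not tested.

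Total RNA and polyA RNA were sequenced from different cultures, at 72 h and 48 h in DM by the labels and with transfection only in the latter, and the tables were normalized separately, so values set across them are a description. Pax7 stood at 7.42 FPKM in total RNA of MT and at 1.07 in polyA RNA of si-NC, a ratio of 6.97. On the log2((FPKM + 1) ratio) scale this was 2.03, above 99.4% of 10484 named genes at 1 FPKM or more in both, whose median was -0.23. Six4 (ratio 2.27, above 97.8% of genes) and Eya4 (ratio 1.70, above 95.2%) also lay on the total RNA side, and Six5 (ratio 0.657, above 35.9%) did not. Eya1 (ratio 1.22, above 83.8%) and Eya3 (ratio 0.996, above 67.4%) lay between Eya4 and Six5. In consequence Pax7 ranked above Six5 in MB and MT and below it in si-NC and si-hnRNPL, in each case with intervals that did not overlap. Which of the differences between these cultures and libraries moves with the values cannot be told apart.

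The total RNA tables also list transcript units assembled from the reads, with a position in mm9 but no strand. Within the 9 loci or up to 100 kb from them there were 73 such units. By the log2((FPKM + 1) ratio) of 0.58, 17 of them (23.3%) were higher in MT and 0 lower, beside 19.8% higher and 3.09% lower over all 36780 assembled units, so the share that was higher lay close to that of units at large. Most of these units lie below 1 FPKM, where a pseudocount of 1 leaves little room for a call. The rule of intervals and ratio was therefore applied to them as well, a choice made after their levels were seen. By that rule 45 of the 73 (61.6%) were higher and 0 lower, beside 42% and 6.46% over all assembled units. Units of a single locus lie close together and do not count as separate observations. The calls of single units given below are by the rule of intervals and ratio, and those by 0.58 are given beside them.

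Gene spans given here run over both the deposited locus and the GENCODE model, and distances are counted from their ends. Pax7 (mm9 chr4:139292977-139389445, minus strand) had the most units, 23, all of them above their MB value in MT. Upstream of the gene, 12 units lay between 0.342 and 17.3 kb from it, and 10 of them were called higher, with a median FPKM of 0.128 in MB and 0.515 in MT. The longest of those upstream units, chr4:139393212-139397865, went from 0.169 FPKM (0.0922 to 0.247) to 0.713 (0.561 to 0.865), a ratio of 4.21. A unit at chr4:139389010-139391734, which reaches into an exon of the GENCODE model and overlaps the promoter window of Pax7, was nearly level at 0.207 (0.145 to 0.269) and 0.216 (0.153 to 0.278). By the log2 change of 0.58, 4 of the 23 units were higher. The upstream units had ratios of 2.38 to 9.24, beside a ratio of 1.53 for Pax7 itself.

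Six4 (chr12:74201246-74214401, minus strand) had 5 units upstream, 1.62 to 8.29 kb from the gene, with a median FPKM of 0.0322 in MB and 0.244 in MT, of which 3 were called higher. On its downstream side 8 units lay 45.3 to 98.0 kb away, and all 8 were called higher, with ratios of 2.14 to 7.14. By the log2 change of 0.58, 2 of the 13 units within 100 kb of Six4 were higher. Units were placed with a gene by distance alone, and whether another gene lies nearer to them was not examined. Eya3 (chr4:132194902-132280680, plus strand), the gene that was lower in MT, had 6 units upstream, of which 4 were called higher by intervals and ratio and 0 by the log2 change of 0.58. The nearest of them, chr4:132193613-132194851, overlaps the Eya3 promoter window and went from 0.226 FPKM (0.125 to 0.327) to 0.480 (0.337 to 0.623), a ratio of 2.12, while Eya3 itself had a ratio of 0.629.

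Eya1 (chr1:14159035-14300281, minus strand) held 5 units in its introns, between 7.13 and 39.2 kb from its start. All 5 were higher in MT by both rules, with ratios of 2.77 to 9.17 whose lower 95% bounds ran from 1.57 to 2.32. The ratio of Eya1 itself was 1.14 with an upper bound of 1.21. Eya4 (chr10:22823974-23069709, minus strand) held 2 intronic units, which went from 1.62 to 4.55 FPKM and from 2.17 to 6.16, ratios of 2.82 and 2.84 beside 1.61 for Eya4. The part of unspliced RNA of the surrounding gene in these units was not tested. Pax3 (chr1:78097842-78193711) had 0 units in the locus or within 100 kb, and Msc (chr1:14743427-14746047) had 2 upstream that were not called by either rule. Six5 had 14 units, all overlapping another named gene, of which 2 were higher by intervals and ratio and 2 by 0.58. Eya2 had 3, all downstream, with 1 higher by each rule, and the units so called overlap another named gene as well. Without units that overlap another named gene, 42 of 57 were higher by intervals and ratio and 14 of 57 by 0.58. The share over all assembled units under that same filter was not counted, so these counts have no background beside them.

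**Figure D3:**
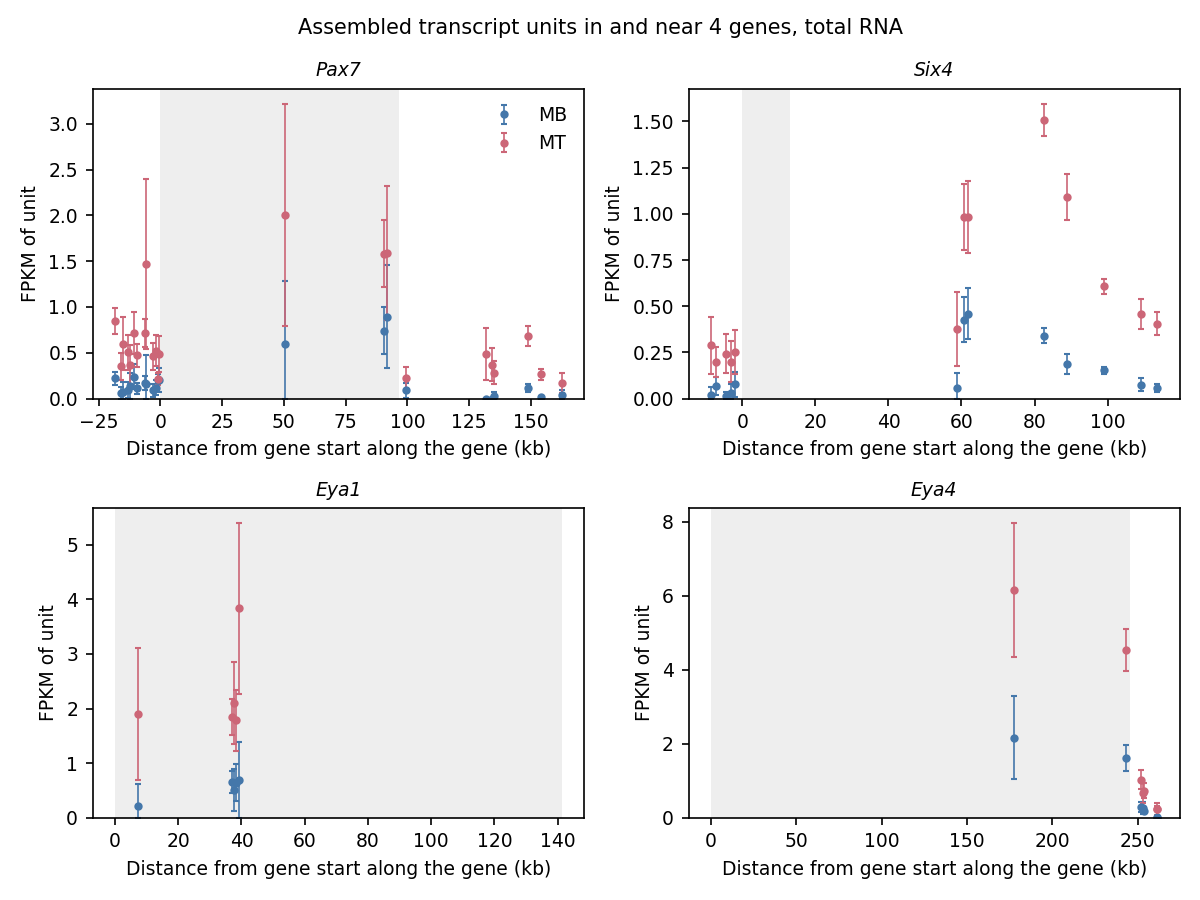
FPKM of assembled transcript units in MB and MT against their distance along the gene from the start of Pax7, Six4, Eya1 and Eya4 (kb, negative is upstream), with bars for the 95% interval and the gene's span in grey. Each MT point lies above the MB point of the same unit in these 4 loci, including the 5 intronic units of Eya1. Over all loci, 69 of 73 units were above their MB value in MT and 4 below, the latter at loci not shown.

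The genes around this pathway were counted from lists of other Pax, sine oculis and Dach genes, other upstream factors, reported targets and satellite cell markers. Over the 47 counted genes that are not among the 9, 24 had an FPKM of 1 or more in MB or MT, and 9 were higher and 5 lower in MT. Over all named entries that reached 1 FPKM in either library the shares were 15.4% higher and 28.5% lower. In the knockdown 2 were higher and 1 lower, beside 1.44% and 0.888% of such entries. The counts of single lists below are to be read against these shares.

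The 7 other Pax genes summed to 0.674 FPKM in MB and 0.417 in MT, most of it Pax6 (0.602 and 0.274), and Pax7 was the only Pax gene that reached 1 FPKM.

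Among 14 other upstream factors, 7 reached 1 FPKM, of which 1 was higher and 2 lower in MT. Dmrt2 went from 4.14 to 6.70 FPKM (log2 change 0.58), Tbx1, a T-box factor of head muscle, from 4.19 to 1.99 (-0.80), and Meis1, a homeobox cofactor, from 8.49 to 5.21 (-0.61). In the knockdown 0 of the 14 were called.

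Of 8 genes listed as Pax3 or Pax7 targets, 3 were higher and 1 lower in MT, with a median change of 0.14. The higher ones were Dmrt2, the receptor gene Fgfr4 (3.19 to 17.1 FPKM, log2 change 2.11) and Myod1 (36.6 to 65.9, 0.83), and the lower one was Id3, an inhibitor of bHLH factors (211 to 104, -1.01). Myf5 was level at 13.8 and 13.6 FPKM. In si-hnRNPL, Id3 was the single gene of the list that was called, higher at 64.5 FPKM against 34.1 in si-NC (log2 change 0.90).

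Of 7 genes listed as targets of sine oculis factors or Eya, 2 were higher and 2 lower in MT. Myog went from 0.695 to 251 FPKM (log2 change 7.21) and Tnnc1, the slow and cardiac troponin C gene, from 5.91 to 451 (6.03). The lower ones were Ccnd1, which encodes cyclin D1 (113 to 18.8, -2.53), and Ezr, which encodes ezrin (56.7 to 23.7, -1.23). Aldoa, whose muscle promoter holds a MEF3 element, was at 319 and 341 FPKM. In si-hnRNPL, Tnnc1 was higher (677 to 1047, log2 change 0.63) and Ccnd1 lower (31.9 to 20.4, -0.62). The median change over the 6 targets above 0 FPKM was 0.15 in MT over MB. The changes of Six4, Six5 and the Eya genes stayed between -0.62 and 0.65. The 4 called targets were picked by their change in these same data, so the size of their changes is not compared with these. Myog is also one of the myotube markers above.

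Among 10 satellite cell markers, a list that includes Pax7, 4 were higher and 0 lower in MT, of 8 that reached 1 FPKM, beside 15.4% higher and 28.5% lower among all such entries. Spry1, an inhibitor of FGF signalling, went from 1.26 to 18.2 FPKM (log2 change 3.09), the integrin gene Itga7 from 49.2 to 176 (1.82), Cdh15 from 45.9 to 110 (1.24) and Vcam1 from 34.0 to 71.9 (1.06). Cd34 was at 44.9 and 29.9 FPKM (-0.57), and Calcr was listed at 0 in all 4 libraries. In the knockdown 0 of the 10 were called.

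**Figure D4:**
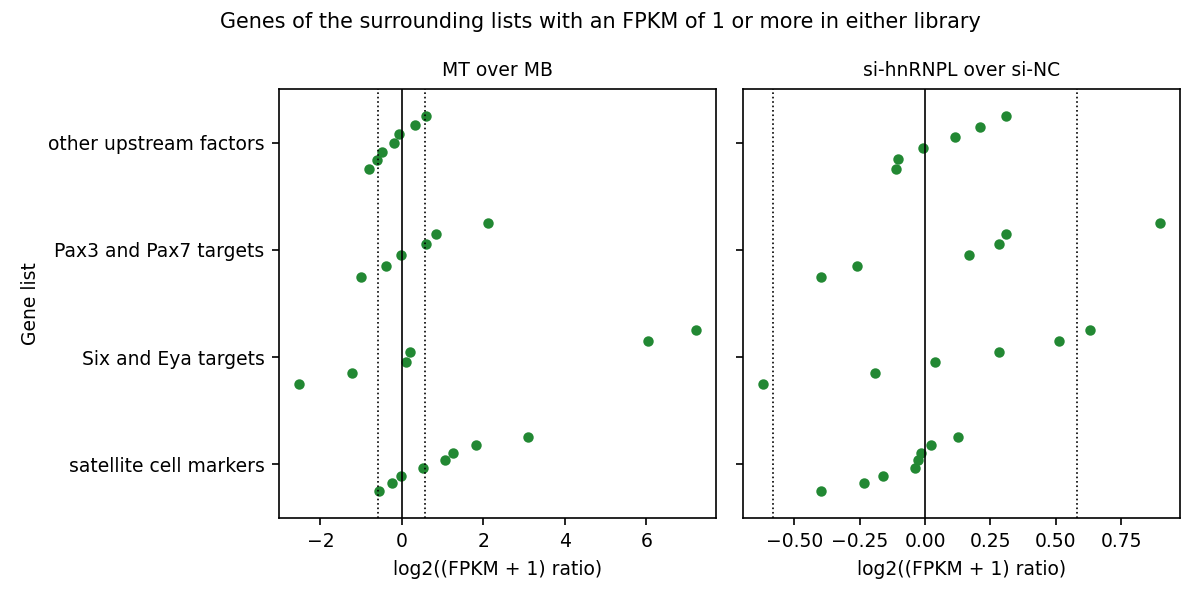
Log2((FPKM + 1) ratio) for MT over MB (left) and si-hnRNPL over si-NC (right) of genes in 4 lists, with 1 point per gene that reached 1 FPKM in either library and dotted lines at -0.58 and 0.58. The targets spread widely in the left panel, with Myog at 7.21 and Ccnd1 at -2.53.

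By likeness of level, the named genes nearest to each of the 7 expressed genes were found from the Euclidean distance of log2(FPKM + 1) over the 4 libraries, among 11579 genes that reached 1 FPKM in any of them. Eya3 had close neighbours in Rcbtb1 (distance 0.105), Tubgcp4 (0.119) and Ltbp2 (0.12). Eya1 was near Stat5b (0.125), Rnpc3 (0.125) and Wdr24 (0.137), and Eya4 near Arhgef10l (0.226), Zfp655 (0.266) and Tmf1 (0.27). Six4 was near Bbx (0.199), Ggps1 (0.21) and Btbd7 (0.379), and Six5 near Dock6 (0.171), Hsf4 (0.199) and Alyref2 (0.239). Msc was near Fbxl7 (0.203), Dixdc1 (0.244) and Ccdc18 (0.253). Pax7 had the most distant nearest genes, Ago3 (0.366), Ptar1 (0.522) and Aplp1 (0.588). With 4 libraries of different kinds, this measure mostly reflects the level and the gap between total and polyA RNA.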

How the data were processed

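Libraries of total RNA (MB, MT) and of polyA RNA (si-NC, si-hnRNPL) were analysed, each condition being sequenced once. The authors trimmed adapters and low-quality ends, discarded short reads, mapped the rest to mm9 with TopHat, estimated abundance with Cufflinks and deposited FPKM values with a 95% interval. Per the submitters' processing notes the tools were TopHat2 and Cufflinks. The total RNA libraries were strand-specific. The deposited tables hold no counts, so no count test was run. Values across total RNA and polyA tables were not tested.

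Changes were log2((FPKM + 1) ratio), called at 0.58, with intervals from the half-widths of both libraries in quadrature. Fragments were implied by interval width as (2 x FPKM / (upper bound - FPKM)) squared. Entries with a failed status were left out of the background. Gene models came from GENCODE for mm9 and promoter sequences from RefSeq (GRCm38.p6), placed in mm9 by exact match. The 9 genes are given in full, genes of the surrounding lists where called or of largest change, and the 3 nearest genes by level. Myf5, Aldoa, Cd34 and Calcr were named after their values were seen. The genes and lists were chosen with earlier results of these data known. Of the listed genes, 4 are not reported here and were left out of the list counts. The second call rule and the other alternatives are compared in the closing section. The comparison of total beside polyA RNA and the call of assembled units by intervals and ratio were added after seeing the data. Calculations used Python 3.11.15, numpy 2.4.6, pandas 2.3.3 and matplotlib 3.10.9 and were tested on simulated data.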

Additional observations from a re-analysis of the deposited data

How the results depend on the processing

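For MT over MB, the number of the 9 genes that were higher changed from 1 to 2 with a pseudocount of 0.1 or 0.01 and with the rule of intervals and ratio, to 3 after centring on the median and to 0 at a log2 change of at least 1. The number that were lower changed from 1 to 2 with a pseudocount of 0.1 and with the rule of intervals and ratio, to 3 with a pseudocount of 0.01, and to 0 after centring and at a log2 change of at least 1. Asking for an FPKM of at least 1 kept both counts at 1. In the knockdown both counts were 0 under every alternative except a pseudocount of 0.01, which gave 1 higher (Eya2) and 1 lower (Pax3), each listed at 0 in a library. Over the listed genes around the pathway, the count higher in MT changed from 9 to 12 and 15 with pseudocounts of 0.1 and 0.01. That count was 12 by intervals and ratio, 7 at a log2 change of at least 1 and 9 after centring. The count lower changed from 5 to 8 and 12 with pseudocounts of 0.1 and 0.01, and to 7 by intervals and ratio. After centring and at a log2 change of at least 1 the count lower was 3. In the knockdown the count higher changed from 2 to 4, 6 and 0 and the count lower from 1 to 2, 5 and 0, with pseudocounts of 0.1 and 0.01 and at a log2 change of at least 1. Assembled units at the 9 loci that were higher in MT numbered 17 by the log2 change and 45 by intervals and ratio, an alternative added after seeing the data.

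The direction of single genes changed in 1 case, Eya2 in MT over MB, at -0.056 and at 0.17 after centring. Leaving out a replicate was not possible with 1 library per condition. No paired analysis was possible because each condition has 1 library. Pax3 and Eya2 rest on fewer than 8 fragments in each library, and the polyA libraries limit Msc and Pax7.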
